A study of Mus musculus with 12 samples.

Results

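*Cabp7*, *Sh3pxd2a* and *Ky* are 3 of the 38924 genes counted by RNA sequencing in 12 pancreatic neuroendocrine tumors (PanNETs), and 3 of the 16645 genes with enough counts to be tested. They were chosen by their symbols as genes with higher levels in tumors treated with rapamycin plus sunitinib than in tumors treated with sunitinib alone. That difference therefore described the choice and was not tested again. All tumors were insulinomas of RIP1Tag2 mice on a C57Bl6 background, in which the rat insulin promoter drives the SV40 T antigens in beta cells, and every group carried this transgene. Mice were treated for 4 days from 15.5 weeks of age with saline (control, 4 tumors), with sunitinib (4 tumors), or with rapamycin and sunitinib together (R+S, 4 tumors). Sunitinib inhibits VEGF and PDGF receptors and other receptor tyrosine kinases, and rapamycin inhibits the mTOR complex that controls growth and protein synthesis. No group with rapamycin alone was analysed here, so R+S versus sunitinib compared tumors with and without rapamycin, all of them given sunitinib.

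The 3 proteins have different roles. *Cabp7* encodes calneuron 2, a membrane-anchored EF-hand calcium sensor of the Golgi apparatus that is best known in neurons, where it restrains phosphatidylinositol 4-kinase beta, a kinase of Golgi-to-membrane transport. *Sh3pxd2a* encodes TKS5, a scaffold with a PX domain and several SH3 domains that is phosphorylated by SRC and is needed for podosomes and invadopodia, the actin-rich protrusions through which cells degrade matrix. *Ky* encodes a transglutaminase-like peptidase of the muscle Z-disc that binds filamin C and IGFN1, and its loss causes the muscle disease and curved spine of the *ky* mouse.

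Libraries held between 31872342 and 44215054 counts on genes, and the labels tied tumors to a prefix shared within groups. All 4 controls had the prefix S409, sunitinib tumors 5, 6 and 8 had BX41, sunitinib tumor 12 had BX44, R+S tumors 5 and 7 had BZ51, R+S tumor 4 had BZ50 and R+S tumor 10 had BZ75. No prefix occurred in more than 1 group, so prefix and treatment cannot be told apart. What the prefix stands for is not given in the sources used here, and tumors with a common prefix may not be independent. The beta-cell markers (10 genes with *Ins1*, *Ins2* and *Iapp*) summed to between 32920 and 78080 normalized CPM in 11 tumors, CPM being counts scaled to a common library size. Sunitinib tumor 6 stood apart at 2454 CPM, and results are given without it where they rest on it.

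*Cabp7* (ENSMUSG00000009075) lies on the minus strand at chr11:4736892-4746778 of GRCm38, and its far end overlaps *Zmat5* on the other strand, which the strand-specific libraries separate. *Sh3pxd2a* (ENSMUSG00000053617) lies on the minus strand at chr19:47260174-47464401 and holds the microRNA gene *Mir6995*, which had between 0 and 2 counts per tumor. *Ky* (ENSMUSG00000035606) lies on the plus strand at chr9:102505750-102546239. Of the 50-base words in their transcripts, 0% occurred in transcripts of another gene. The search covered exact matches in annotated transcripts only, so copies with mismatches were not looked for.

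The *Cabp7* promoter is shown because this gene had the largest difference of the 3. It is the 250 bases before the RefSeq gene start, at chr11:4747180-4747429 on the minus strand of GRCm38.p6, where no exon is annotated. The annotation used here starts the gene further downstream, at chr11:4746778, so the window does not adjoin that start. Capitals mark the GC box GGGCGG.
Cabp7 promoter: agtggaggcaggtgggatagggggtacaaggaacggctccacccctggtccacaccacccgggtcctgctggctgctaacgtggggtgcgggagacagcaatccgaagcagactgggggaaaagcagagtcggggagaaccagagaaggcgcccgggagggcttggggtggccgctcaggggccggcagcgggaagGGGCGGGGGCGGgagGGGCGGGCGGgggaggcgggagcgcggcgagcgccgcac
The window was 72.4% G or C, against a median of 52.4% over 32851 promoters of the same length, and held 21 CpG pairs. It held 4 matches of GGGCGG, with overlapping matches and both strands counted, close to its downstream end. The same motif was present in 32.7% of all promoters and once in the window of *Ky*, all 250 bases of which lie in an annotated *Ky* exon, since the annotation used here starts the gene further upstream. The letters CACGTG (E-box, in 6.02% of promoters), TGACGTCA (cyclic AMP response element, in 1.55%) and GTAAACA (forkhead, in 3.17%) were not present in either window on either strand. Promoters of 2 of the 3 genes were matched in the RefSeq table.

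*Cabp7* reached 123, 360.5, 59.8 and 103 normalized CPM in R+S tumors 4, 5, 7 and 10. The 4 sunitinib tumors had 23.0 CPM (tumor 5), 9.70 (tumor 6), 18.8 (tumor 8) and 9.56 (tumor 12). The controls had 68.4, 51.0, 11.1 and 15.8 CPM in tumors 1 to 4. Every R+S tumor was above every sunitinib tumor, but R+S tumor 7 was below control tumor 1, and the controls fell into a high and a low pair. The group means were 161.7 ± 135.1 CPM with R+S, 15.3 ± 6.71 with sunitinib and 36.6 ± 27.7 in controls (SD, n = 4 each). Within a group, the highest tumor exceeded the lowest 6.03-fold with R+S, 2.40-fold with sunitinib and 6.18-fold in controls. These values rest on 298 to 14275 reads per tumor, so counting error was small beside the spread between tumors.

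*Sh3pxd2a* levels were 97.0, 270.3, 66.6 and 85.0 CPM in R+S tumors 4, 5, 7 and 10. Sunitinib tumors 5, 6, 8 and 12 had 35.1, 10.9, 23.3 and 15.5 CPM. Controls 1 to 4 had 65.8, 27.3, 24.2 and 27.5 CPM. Every R+S tumor was above all others, by a narrow margin only over control tumor 1, which itself lay well above the other controls. The means were 129.7 ± 94.6 CPM with R+S, 21.2 ± 10.6 with sunitinib and 36.2 ± 19.8 in controls (SD, n = 4 each). R+S tumor 5 was the highest of the 12 for both *Cabp7* and *Sh3pxd2a*, and the R+S tumors had the same order for both genes, 5, 4, 10 and 7. Tumors 5 and 7, the highest and the lowest R+S tumors for both genes, carried the same prefix.

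*Ky* was the steadiest of the 3. R+S tumors 4, 5, 7 and 10 had 124, 144.4, 116.5 and 144.1 CPM. Sunitinib tumors 5, 6, 8 and 12 had 26.9, 14.5, 41.9 and 15.5 CPM, and controls 1 to 4 had 41.2, 41.4, 58.3 and 57.7 CPM. Here the R+S group was clear of both other groups, its lowest tumor lying at 116.5 CPM and the highest of the others at 58.3 CPM. The means were 132.2 ± 14.2 CPM with R+S, 24.7 ± 12.8 with sunitinib and 49.6 ± 9.67 in controls (SD, n = 4 each). Its R+S tumors lay within 1.24-fold of each other, with R+S tumor 5 no longer apart. Sunitinib tumor 8 (41.9 CPM) reached the 2 lower controls, so sunitinib and control overlapped.

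**Figure D1:**
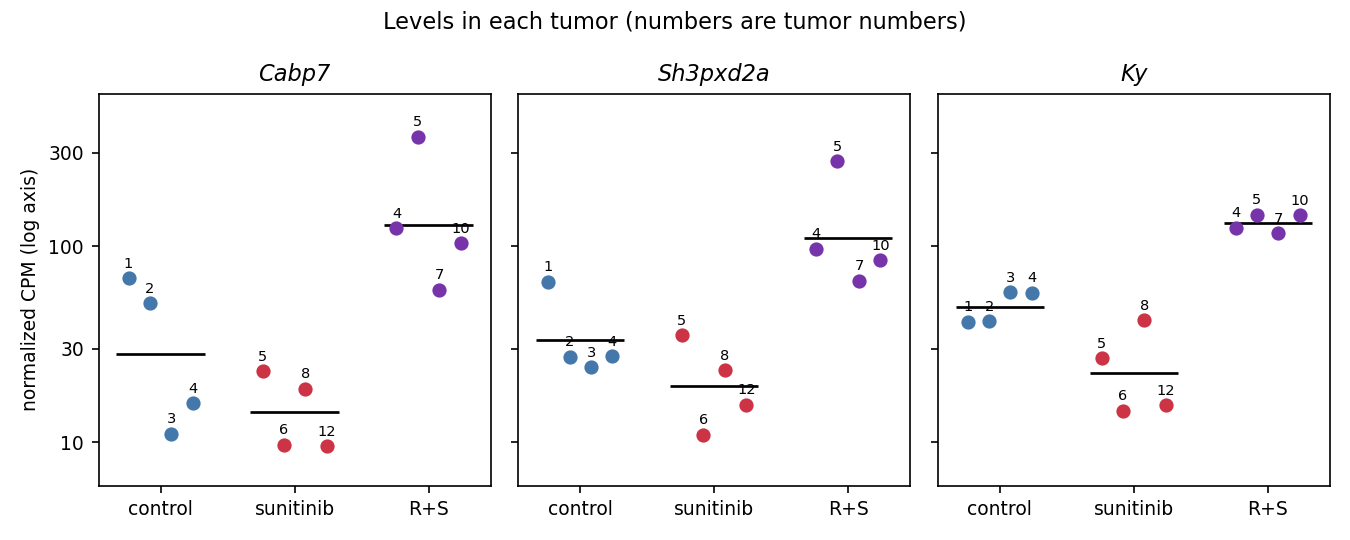
Normalized CPM (log axis) of *Cabp7*, *Sh3pxd2a* and *Ky* in each of the 12 tumors by group, with 1 point per tumor, its number above the point, and a black line at the mean of log2 CPM of the 4 tumors. All R+S points lie above all sunitinib points in each panel, R+S tumor 5 is highest for *Cabp7* and *Sh3pxd2a* (360.5 and 270.3 CPM), and the R+S points for *Ky* lie together between 116.5 and 144.4 CPM.

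For all 3 genes the order of the group means was R+S, control, sunitinib. Sunitinib and control tumors overlapped for each of them, while every R+S tumor lay above every sunitinib tumor, as did those of 8.9% of the tested genes. *Sh3pxd2a* and *Ky* had every R+S tumor above all 8 others, which 3.95% of the tested genes showed, and *Cabp7* did not. None of the 3 had every sunitinib tumor below every control, against 5.76% of the tested genes. The first of these separations follows from how the genes were chosen. In these bulk tumors, fewer cells of a type and less RNA per cell cannot be told apart.

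The fitted R+S versus sunitinib difference (edgeR) was 3.41 on the log2 scale (SE 0.70) for *Cabp7*, 10.6-fold, 2.61 (SE 0.53) for *Sh3pxd2a*, 6.11-fold, and 2.42 (SE 0.31) for *Ky*, 5.36-fold. In this comparison, from which the 3 genes were chosen, 2.63% of the tested genes were higher at an adjusted p under 0.05. *Cabp7* and *Sh3pxd2a* each depended on R+S tumor 5, without which the differences were 2.65 and 1.97. *Ky* stayed between 2.24 and 2.81 when any tumor was left out. Without sunitinib tumor 6, the tumor low in beta-cell markers, the differences were 3.24, 2.40 and 2.24 (log2).

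R+S versus control gave smaller differences on the log2 scale, 2.14 (SE 0.67) for *Cabp7*, 1.84 (SE 0.52) for *Sh3pxd2a* and 1.41 (SE 0.30) for *Ky*. Sunitinib versus control was negative for each, at -1.26 (SE 0.65), -0.77 (SE 0.51) and -1.01 (SE 0.30) on the same scale. These comparisons share tumors with the one that chose the genes, so they are given as descriptions. Control tumor 1 bore on these values, since without it sunitinib versus control was -0.77 for *Cabp7* and -0.31 for *Sh3pxd2a*, and R+S versus control was 2.64 and 2.30. Without R+S tumor 5, R+S versus control was 1.39 and 1.198 for the same genes.

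The mean of both treated groups against control uses a contrast set up to be independent of R+S versus sunitinib. It shares the estimate of spread that entered the choice, and its independence needs an equal spread in sunitinib and R+S tumors. The SDs of log2 CPM (sunitinib, then R+S) were 0.65 and 1.085 for *Cabp7*, 0.72 and 0.89 for *Sh3pxd2a*, and 0.72 and 0.16 for *Ky*. The test may thus not be fully free of the choice. Of the 3 genes 0 passed this test, against 3.96% of all tested genes (edgeR quasi-likelihood test, Benjamini-Hochberg adjustment), 0 had an unadjusted p under 0.05, and 0 passed by DESeq2. *Cabp7* differed by 0.44 on the log2 scale (SE 0.57, 95% interval -0.79 to 1.68, adjusted p = 0.764). *Sh3pxd2a* differed by 0.54 (SE 0.44, 95% interval -0.43 to 1.51, adjusted p = 0.613). *Ky* differed by 0.20 (SE 0.26, 95% interval -0.36 to 0.77, adjusted p = 0.761). The intervals leave room for differences of more than 2-fold in *Cabp7* and *Sh3pxd2a*, and were narrowest for *Ky*.

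**Figure D2:**
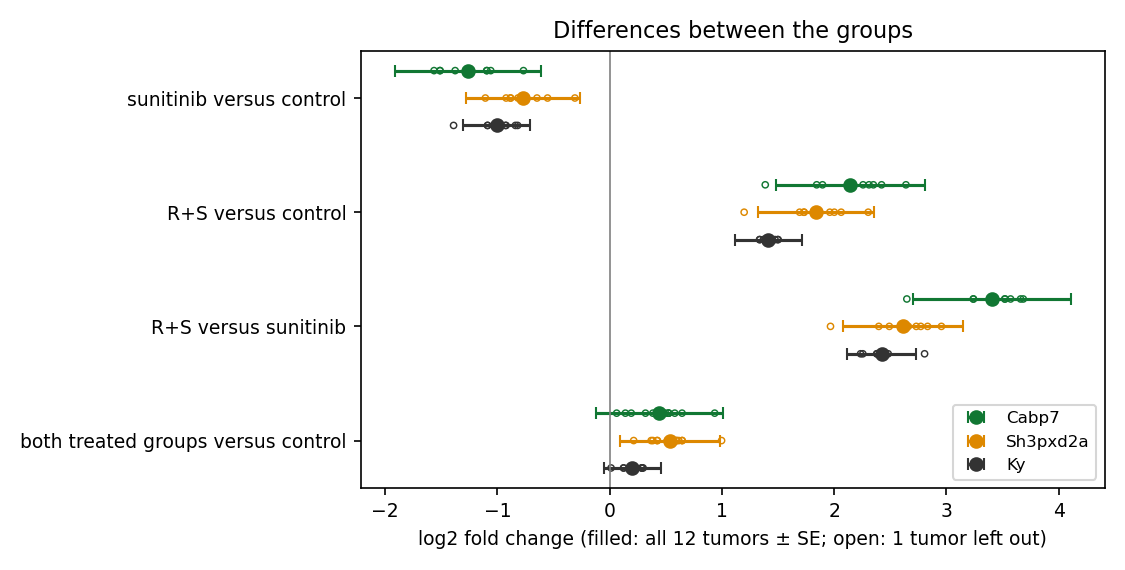
Fitted log2 differences of *Cabp7*, *Sh3pxd2a* and *Ky* in 4 comparisons of groups, with bars of 1 standard error around the filled points and open points for fits with 1 tumor left out. R+S versus sunitinib lies between 2.42 and 3.41 for the 3 genes, sunitinib versus control lies below 0 for each, and both treated groups versus control lies between 0.20 and 0.54.

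Compared per transcript length, the 3 genes stood at different levels. *Cabp7* averaged 61.5 RPKM with R+S (CPM divided by the length of the exons in kilobases), at percentile 96.9 of the tested genes, against 5.80 RPKM with sunitinib (percentile 52.5) and 13.9 RPKM in controls (percentile 76.4). *Ky* averaged 22.5 RPKM with R+S (percentile 86.6), 4.20 with sunitinib and 8.44 in controls. *Sh3pxd2a*, the longest transcript, averaged 11.2 RPKM with R+S (percentile 70.5), 1.83 with sunitinib (percentile 30.2) and 3.12 in controls. *Cabp7* thus had the highest mean of the 3 per length in every group, and *Sh3pxd2a* the lowest.

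*Cabp7* and *Sh3pxd2a* were also compared among tumors of a group. Both deviated from their group mean (log2 CPM) in the same direction in 11 of 12 tumors, the exception being control tumor 2, where *Cabp7* was high and *Sh3pxd2a* was not. *Cabp7* and *Ky* deviated in the same direction in 7 of 12 tumors, and *Sh3pxd2a* and *Ky* in 8 of 12. The ratio of *Cabp7* to *Sh3pxd2a* counts ran from 0.458 (control tumor 3) to 1.87 (control tumor 2), a 4.09-fold spread. That of *Cabp7* to *Ky* counts spread over 13.2-fold. In controls, *Cabp7* split the tumors differently from *Ky*, since tumors 1 and 2 were the higher ones for *Cabp7* and the lower ones for *Ky*. For *Sh3pxd2a* only control tumor 1 stood apart. The spread around group means (pooled SD of log2 CPM) was 1.04 for *Cabp7*, 0.77 for *Sh3pxd2a* and 0.46 for *Ky*. These deviations share the libraries and their depth, and were not tested. The share of all gene pairs with as many deviations in the same direction was not counted. Each deviation is taken from the mean of the same tumors, so the signs are not independent. The largest deviations of *Cabp7* and *Sh3pxd2a* were those of R+S tumor 5, at 1.485 and 1.292.

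**Figure D3:**
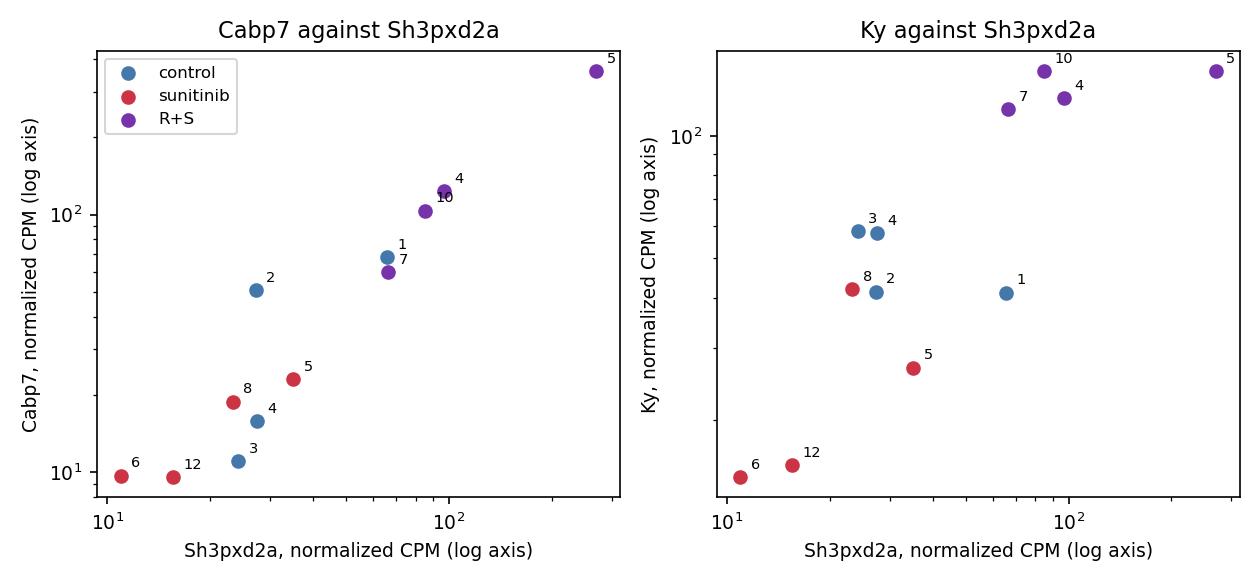
*Cabp7* (left) and *Ky* (right) against *Sh3pxd2a* in the 12 tumors (normalized CPM, log axes), with 1 point per tumor, its number beside it and its group as color. On the left, R+S tumor 5 is highest on both axes and control tumor 2 has more *Cabp7* than tumors with a like level of *Sh3pxd2a*, and on the right the R+S tumors lie between 116.5 and 144.4 CPM of *Ky* while their *Sh3pxd2a* runs from 66.6 to 270.3 CPM.

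The genes with the most similar pattern were ranked by the root mean square difference of centered log2 CPM over the 12 tumors, among 10647 genes with an average log2 CPM of at least 3. *Sh3pxd2a* was the nearest gene to *Cabp7* at 0.56, followed by *Filip1* (0.69), a filamin-interacting protein, and *Cyp4v3* (0.84), a fatty acid hydroxylase. The median distance over all candidates was 1.63. For *Sh3pxd2a* the nearest were *Filip1* (0.42), *Casr* (0.53), the calcium-sensing receptor, and *Cabp7* (0.56), against a median of 1.27. For *Ky* they were *Glis3* (0.43), a zinc-finger transcription factor of islets, *Zkscan7* (0.51) and *Abca1* (0.52), the cholesterol exporter, against a median of 1.15. *Cabp7* was at rank 2130 for *Ky*, at 1.00, and *Sh3pxd2a* at rank 37, at 0.67. From the other side, the same distances put *Ky* at rank 14 for *Cabp7* and at rank 12 for *Sh3pxd2a*. Distances were not scaled by the spread of each gene, so the ranks depend on which gene is the reference. Differences between the 3 treatment groups make up part of each distance. They include the R+S versus sunitinib difference that chose the 3 genes, and *Casr* and *Filip1* come shortly after them by that difference. Closeness among these genes therefore follows in part from the choice and adds no support.

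The members were the 3 genes with the largest R+S versus sunitinib difference among 329 genes meeting the same conditions (an adjusted p under 0.05, no overlap between both groups, an average log2 CPM of at least 3 and a named gene). The next gene was *Col6a6*, a collagen VI chain, at 2.41 (log2, SE 0.64), close to *Ky* at 2.42. *Col6a6* ranged from 4.73 to 59.5 CPM in sunitinib tumors and from 67.7 to 191 CPM in R+S tumors. *Casr* followed at 2.34 (log2), with 1.41 to 6.49 and 11.9 to 43.2 CPM. *Filip1* followed at 2.17 (log2), with 4.20 to 11.8 and 19.4 to 57.2 CPM.

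Of the tested genes next to or overlapping the 3 genes on their chromosomes, 1 passed the threshold. Beside *Cabp7*, *Nf2* differed by 0.67 on the log2 scale (R+S versus sunitinib, adjusted p = 0.0559, edgeR), *Uqcr10* by -0.78 (adjusted p = 0.0581) and the overlapping *Zmat5* by -0.47 (adjusted p = 0.209). Beside *Sh3pxd2a*, *Neurl1a*, 732 bases away, rose by 0.58 (adjusted p = 0.0491) and *Stn1* differed by -0.46 (adjusted p = 0.0573). Beside *Ky*, *Cep63* differed by 0.48 (adjusted p = 0.109) and *Ephb1* by -4.07 (adjusted p = 0.0667). The reads of *Ephb1* were few and uneven, with 5 to 625 counts per tumor and 625 of its 1115 counts in 1 tumor. *Neurl1a*, an E3 ubiquitin ligase, was thus 1 of these 7 neighbors past the threshold, which 7.21% of all tested genes passed, and without R+S tumor 5 no gene passed it.

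Lists fixed for each gene gave the other genes of its known role, and each was counted in R+S versus sunitinib, where 7.21% of all tested genes passed (2.63% higher, 4.58% lower), and in sunitinib versus control, where 4.48% did (1.93% higher, 2.55% lower). These R+S calls depend on the tumors fitted. The total of 1200 genes fell to 0 without R+S tumor 5, to 1 without R+S tumor 4 or R+S tumor 7, to 314 without R+S tumor 10, and to 3 when only the 8 tumors compared were fitted.

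Around *Cabp7*, calcium sensors, the phosphatidylinositol 4-kinases and voltage-gated calcium channels made a list of 37 genes, 30 of them tested. With R+S versus sunitinib 1 rose and 3 fell, and the list's median difference was -0.05 (log2), beside -0.03 over all genes (edgeR adjusted p). *Cacna1d*, an L-type calcium channel gene, rose by 0.94 (adjusted p = 0.0295). It had 218.3, 275.4, 221.6 and 240.4 CPM in R+S tumors and between 77.1 and 162.0 CPM in sunitinib tumors. *Calm2*, a calmodulin gene, fell by 0.67 (adjusted p = 0.0340), from 600.3 to 959.0 CPM with sunitinib to 435.6 to 487.1 CPM with R+S. *Guca1a*, a guanylate cyclase activator, fell by 1.55 (adjusted p = 0.0293) at levels under 2 CPM, and *Cabp2*, a relative of *Cabp7* known from the retina and inner ear, fell by 2.04 (adjusted p = 0.0453). With the acinar score in the model *Cabp2* differed by -1.24 (adjusted p = 0.152). In that fit the calls of this list fell from 4 to 1, and those over all genes from 1200 to 402. The *Cabp2* group means had the order of the acinar marker sums, near 0 in controls, highest with sunitinib and lower with R+S. The part of acinar cells in the level of *Cabp2* was not tested. Every R+S tumor was above every sunitinib tumor for *Cacna1d*, as in 8.9% of the tested genes, and below for *Calm2*, *Guca1a* and *Cabp2*. The share of all genes with every R+S tumor below was not counted. These genes were named for passing in this comparison, so the separation adds no support. The count of 4 was 0 without any one of the 4 R+S tumors and 2 without control tumor 2, control tumor 3 or sunitinib tumor 8.

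The partner kinase of calneuron 2, *Pi4kb*, differed by 0.03 (log2, SE 0.15, adjusted p = 0.913) with R+S versus sunitinib. With sunitinib versus control, 2 genes of the list rose, and its median was 0.07. *Cabp2* had 0 or 1 count in each control and 159 to 559 counts in sunitinib tumors (adjusted p = 6.18e-05), and 30 to 191 counts with R+S. *Kcnip2*, a sensor subunit of potassium channels, rose by 1.97 (adjusted p = 0.0457) at levels under 4 CPM. This count was 1 without any one control, without sunitinib tumor 6, 8 or 12, or without R+S tumor 4, 5 or 7. *Caln1*, the closest relative of *Cabp7*, had 11 counts over all tumors and was not tested.

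Around *Sh3pxd2a*, the invadosome list (the TKS4 gene *Sh3pxd2b*, SRC, cortactin, N-WASP, NADPH oxidase subunits, metalloproteases and adhesion proteins) held 42 genes, 41 of them tested. With R+S versus sunitinib, 1 gene passed, 2.44% of the list, and the median was 0.03 (log2). It was *Wipf2*, a WASP-interacting protein, which rose by 0.55 (adjusted p = 0.0258), with 66.5, 73.9, 69.0 and 68.1 CPM in R+S tumors and 53.1, 50.4, 47.0 and 39.3 CPM in sunitinib tumors. It no longer passed without R+S tumor 4, R+S tumor 5 or R+S tumor 7, and a further gene passed without sunitinib tumor 5, 6 or 8. *Sh3pxd2b*, the closest relative, differed by -0.18 (SE 0.20, adjusted p = 0.557), *Cttn* (cortactin) by -0.17 (adjusted p = 0.417) and *Mmp14*, the membrane metalloprotease of invadopodia, by -0.17 (adjusted p = 0.551).

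With sunitinib versus control, 1 invadosome gene rose and 4 fell, 12.2% of those tested, and the median was -0.06 (log2). *Cybb* fell by 1.39 (adjusted p = 0.0174), from 31.0 to 40.3 CPM in controls to 6.63 to 20.1 CPM. *Inpp5d* fell by 1.28 (adjusted p = 0.0241) and *Was* by 1.17 (adjusted p = 0.0493), and these 3 are best known from blood cells, as the phagocyte oxidase subunit, the SHIP phosphatase and the WASP protein. *Afap1l1*, an actin-filament protein, fell by 2.51 (adjusted p = 0.0280), with 4.31 CPM in sunitinib tumor 6 and between 0.513 and 1.05 CPM in the other sunitinib tumors, and without tumor 6 the difference was -3.51. *Noxa1*, an oxidase activator, had 0 or 1 count in each control and 17 to 95 counts in sunitinib tumors (adjusted p = 0.00158). Myeloid markers (6 genes) summed to between 336.1 and 487.0 CPM in controls and between 176.5 and 493.7 CPM with sunitinib, with 1 of 6 lower; their part in these falls was not tested. The count of 5 was 1 without control tumor 3, 2 without control tumor 4 or sunitinib tumor 12, and 3 without sunitinib tumor 5.

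Around *Ky*, the Z-disc and filamin list held 33 genes, and 20 could be tested, since many are muscle genes with few counts here. With R+S versus sunitinib 1 rose and 0 fell, 5% of those tested, and 5 had an unadjusted p under 0.05. That held for 5 of 30 calcium-sensor genes and 9 of 41 invadosome genes, and the share over all genes was not counted. The median was 0.25 (log2), beside -0.03 for all genes, and 15 of 20 differences were above 0. In the calcium-sensor and invadosome lists, 15 of 30 and 23 of 41 were above 0. *Fhod3*, a formin that builds actin in sarcomeres, rose by 0.79 (adjusted p = 0.0468), with 96.4, 111.6, 66.8 and 88.7 CPM in R+S tumors and 41.7, 64.5, 63.4 and 40.3 CPM in sunitinib tumors. Its groups did not overlap, as in the 8.9% of tested genes with every R+S tumor above every sunitinib tumor. It was named for passing here, so this adds no support. *Flnc*, the filamin that KY binds, differed by -0.26 (SE 0.22, adjusted p = 0.457) at about 1 CPM, and *Igfn1*, with 17 counts over all tumors, was not tested. The count of 1 was 0 without any one R+S tumor, any one control or sunitinib tumor 12, and 2 without sunitinib tumor 6.

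With sunitinib versus control no Z-disc gene passed by edgeR, 5 had an unadjusted p under 0.05, and DESeq2 called 1, *Ldb3*. The unadjusted count was 5 of 30 in the calcium-sensor list and 14 of 41 in the invadosome list. The median was -0.15. The count was 1 without sunitinib tumor 5 or R+S tumor 10. Skeletal muscle markers were low in all groups. The 8 markers summed to between 3.39 and 5.74 CPM with R+S, 4.70 and 8.82 CPM with sunitinib and 3.21 and 5.29 CPM in controls, and *Myh4*, a myosin of fast fibers, was at 0 in every control and R+S tumor.

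**Figure D4:**
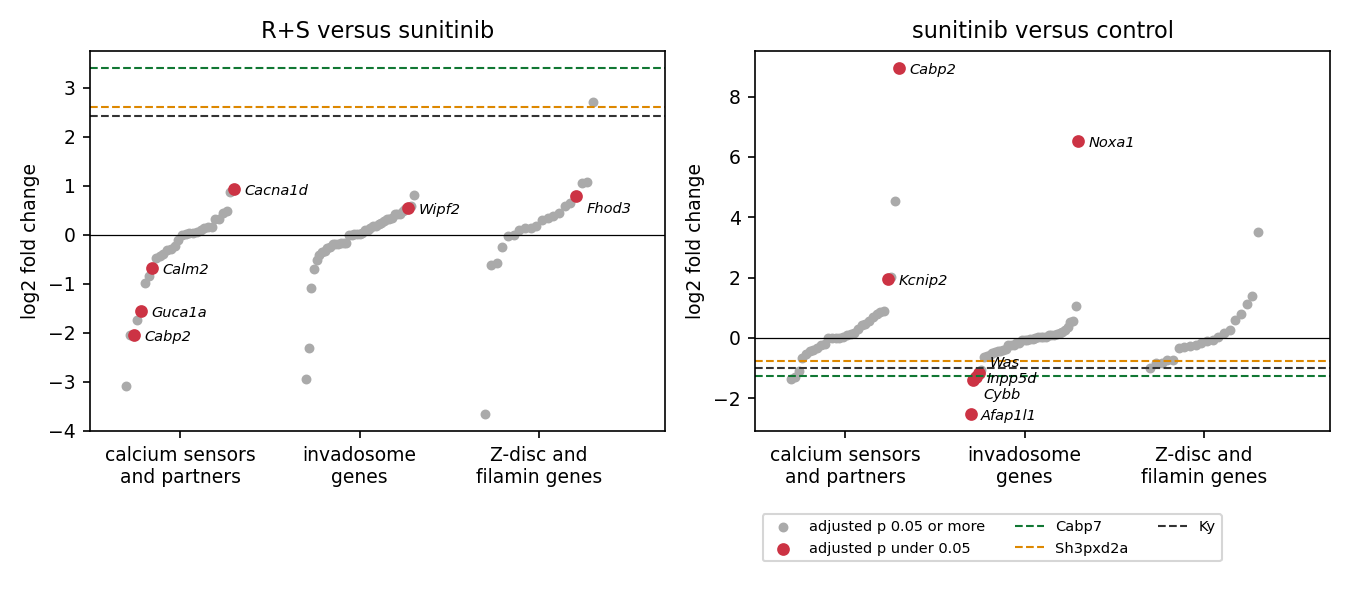
Log2 differences of the tested genes of each list, with 1 point per gene, sorted within its list, for R+S versus sunitinib (left) and sunitinib versus control (right), red where the adjusted p was under 0.05, with dashed lines at the values of *Cabp7*, *Sh3pxd2a* and *Ky*. Most genes lie near 0 and 6 are red on the left; *Cabp2* and *Noxa1* on the right had 0 or 1 count per control, so their size is not a measured fold.

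Markers of other cells also differed between the groups. Acinar markers (12 genes) summed to between 3.17 and 94.9 CPM in controls, 10260 and 37390 CPM with sunitinib and 2564 and 15770 CPM with R+S. All 12 rose with sunitinib versus control, and 0 of 12 passed with R+S versus sunitinib. R+S tumors 5, 4, 10 and 7, in falling order of *Cabp7* and *Sh3pxd2a*, had 12020, 7348, 15770 and 2564 acinar CPM. When the acinar score was added to the model, R+S versus sunitinib gave 3.84 for *Cabp7*, 3.02 for *Sh3pxd2a* and 2.43 for *Ky* (log2). Acinar sums differed between the groups, so this fit cannot separate acinar RNA from treatment. Endothelial markers (8 genes) summed to between 434.0 and 605.0 CPM in controls, 37.3 and 65.0 CPM with sunitinib and 87.5 and 116.9 CPM with R+S. All 8 fell with sunitinib and 6 of 8 rose with R+S versus sunitinib, the same order of sunitinib and R+S as the 3 genes, while controls stood highest. Fibroblast markers (6 genes) summed to between 405.5 and 502.3 CPM with R+S, below the 681.4 to 964.3 CPM with sunitinib, though 0 of 6 passed. Pericyte and smooth muscle markers (6 genes) summed to between 363.3 and 670.5 CPM in controls, 157.0 and 395.8 CPM with sunitinib and 268.0 and 643.6 CPM with R+S. Of these 6, 2 fell with sunitinib versus control and 1 rose with R+S versus sunitinib. The part of acinar, endothelial, fibroblast, pericyte and smooth muscle cells in the levels of *Cabp7*, *Sh3pxd2a* and *Ky* was not tested.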

How the data were processed

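RNA from 12 tumors (3 groups of 4) was sequenced from stranded poly(A) libraries. The authors deposited 1 table of raw counts per tumor, whole numbers per gene without normalization. The submitters' processing notes name cutadapt 1.2.1, TopHat2 2.0.9, HTSeq 0.5.4p3 and GRCm38; the annotation release is not given in the sources used here. The closing summary lines of the tables, 43.95% to 58.69% of all lines summed, stayed out of library sizes and tests; multiply aligned reads were left out by the counting, so genes with copies are undercounted. Groups and tumor numbers came from the labels.

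Symbols and positions of 37607 of the 38924 gene identifiers came from GENCODE M21. Counts were normalized by TMM, filtered by filterByExpr (minimum count 10, minimum total 15; 16645 genes kept) and fitted in 1 model of 3 groups with the robust quasi-likelihood F-test of edgeR 4.0.16 (R 4.3.3, limma 3.58.1), with Benjamini-Hochberg adjustment over all genes at 0.05. The SE is the difference divided by the square root of F, without its sign, and log2 CPM used a prior count of 2. The labels name separate tumors but not the mice, so p-values cover only the spread between these tumors. Total counts had a median of 38526164. PCR copies were not marked, so counting error is a lower limit. Promoter sequences are from RefSeq (GRCm38.p6).

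The members and the lists were chosen with earlier results of these data known, and 1 gene taken out of the lists afterwards is not reported here. Named were the 3 genes, their closest relatives, list genes with an adjusted p under 0.05, the nearest tested neighbors, the 3 most similar genes and the next 3 genes by difference; *Pi4kb*, *Cttn*, *Mmp14* and *Ldb3* were added after their values were seen. The 9 listed alternatives include DESeq2 1.42.0, other normalizations and filters, and summed tumors of 1 prefix, and each tumor was also left out in turn.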

Additional observations from a re-analysis of the deposited data

Results flagged for a closer look

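Of 51 groups of 4 tumors examined for a tumor far from the others, 4 had one, and chance gives about 5% of such groups. *Sh3pxd2a* was 65.8 CPM in control tumor 1, with the other controls between 24.2 and 27.5. *Wipf2* was 60.2 CPM in the same tumor, with the others between 53.7 and 54.7. *Noxa1* was 0.0253 CPM in R+S tumor 5, the tumor highest in *Cabp7* and *Sh3pxd2a*, which is 1 count, with the others between 0.322 and 0.416. *Flnc* was 1.22 CPM in sunitinib tumor 6, with the others all near 1.35.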

How the results depend on the processing

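For *Cabp7*, *Sh3pxd2a* and *Ky*, all 4 differences kept their direction under every alternative run. For R+S versus sunitinib this follows from how the genes were chosen, so it adds no support. Each difference moved by less than the pooled SD of its gene, a wide limit of 1.04, 0.77 and 0.46 (log2). Without R+S tumor 5, no tested gene passed the R+S versus sunitinib threshold that was a condition of the choice. Both treated groups versus control never passed (adjusted p from edgeR or DESeq2 0.490 to 0.977, 0.313 to 0.875 and 0.520 to 0.982). With a tumor left out, R+S versus sunitinib ran from 2.65 to 3.68, 1.97 to 2.96 and 2.24 to 2.81 (log2), sunitinib versus control from -1.56 to -0.77, -1.11 to -0.31 and -1.39 to -0.82, R+S versus control from 1.39 to 2.64, 1.198 to 2.30 and 1.34 to 1.501, and both treated groups from 0.06 to 0.94, 0.21 to 1.00 and 0.01 to 0.30. No paired analysis was run, because the labels do not pair tumors of different groups.

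The list counts did depend on the settings. For R+S versus sunitinib, the 4 calcium-sensor genes became 2 with no filter, 1 with the acinar score as covariate, 0 with only the 8 tumors compared and 0 to 5 with a tumor left out. The 1 invadosome gene became 3 with DESeq2 or tumors of 1 prefix summed, 0 with only the 8 tumors and 0 to 2 with a tumor left out. The 1 Z-disc gene became 2 with DESeq2, 0 with upper-quartile normalization, no filter or only the 8 tumors, and 0 to 2 with a tumor left out. For sunitinib versus control, the 2 calcium-sensor genes became 1 with library size normalization, no filter, summed prefixes or only the 8 tumors, 0 with at least 10 counts in every tumor, which removes *Cabp2*, and 1 to 3 with a tumor left out. The 5 invadosome genes became 3 with at least 10 counts in every tumor, 1 with only the 8 tumors and 1 to 6 with a tumor left out. The Z-disc count of 0 became 1 with DESeq2 or summed prefixes and 0 to 1 with a tumor left out. Beyond the smaller number of tumors, the cause was not tested.

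Reversals met only differences short of the threshold. With a tumor left out, R+S versus sunitinib ran from -0.55 to 0.19 for *Kcnip2*, -0.47 to 0.83 for *Afap1l1* and -0.31 to 0.038 for *Sh3pxd2b*, each positive only without sunitinib tumor 6, and *Afap1l1* was 0.31 with summed prefixes. Sunitinib versus control ran from -0.16 to 0.094 for *Calm2*, -0.17 to 0.058 for *Fhod3* and -0.12 to 0.23 for *Sh3pxd2b*. It turned to -0.029 for *Calm2* with library size normalization, -0.007925 with no filter and -0.025 with summed prefixes, and to -0.050 for *Sh3pxd2b* with summed prefixes. Depth limits the genes under 2 CPM, such as *Guca1a* and *Flnc*.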
